A study of Homo sapiens with 4 samples.

Results

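NRF2, encoded by NFE2L2, is the transcription factor that switches on antioxidant and detoxifying enzymes, and its gene together with 9 of the best known genes of that response was followed in PRMT5 knockdown (KD) and control cells. The 10 genes were taken by name from the 29655 distinct gene names of the count tables, with earlier results of these data known. They are NFE2L2, NQO1, HMOX1, GCLC, GCLM, TXNRD1, SRXN1, AKR1B10, AKR1C1 and OSGIN1. By the sample titles, the RNA came from UMSCC74B, an established line of head and neck squamous carcinoma. It was sequenced as 2 libraries given control shRNA (genotype label WT) and 2 given PRMT5 shRNA, all harvested 72 h later. The labels speak of plasmid transfection and the methods of lentiviral particles, only 1 shRNA product against PRMT5 is named there, and nothing says whether the replicates were separate cultures, so the p-values below measure the spread between these libraries, which may be technical.

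In unstressed cells NRF2 protein is held by KEAP1, an adaptor of the CUL3 ubiquitin ligase, and destroyed. Oxidants and electrophiles modify cysteines of KEAP1, NRF2 then builds up, pairs with a small MAF protein and binds the antioxidant response element, a short DNA sequence beside its target genes that the repressor BACH1 can also occupy. The response is therefore governed largely at the level of the NRF2 protein, which RNA counts do not show. Head and neck squamous carcinomas are among the tumours in which this pathway is often switched on.

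The libraries held between 52185289 and 65964558 estimated counts on gene names, of which 71.5% to 81.4% were assigned to protein-coding names. Ribosomal RNA took 15.3% and 14.2% of the counts in control and 26.2% and 18.0% in PRMT5 KD, where replicate 1 stood apart. PRMT5 itself was higher under the PRMT5 KD label, at 132 and 149 CPM (counts scaled to a common library size) against 94.3 and 84.2 in control (log2 fold change 0.66, FDR = 0.00547), so every direction below is by the label. Markers of squamous carcinoma cells were nearly absent, and the identity of the cells, known here from the titles and the paper alone, was not tested. Of 8 such markers, TP63 was the single one that passed the filter on low values, KRT5, KRT14 and KRT6A had between 0 and 22 counts in any library, and the 8 together summed to between 4.56 and 7.92 CPM. TP63 fell, from 5.51 and 6.59 CPM to 1.74 and 3.01 CPM (FDR = 0.0111). KRT14, KRT17 and SFN, too low to be tested, went the other way. KRT17 had 5 and 6 counts in control against 53 and 71 in PRMT5 KD, and SFN had 3 and 5 against 28 and 86. The sum of the 8 markers overlapped between the groups. Of the simple epithelial keratins, added after their values were seen, KRT8 fell from 14.4 and 17.1 CPM to 6.66 and 10.8 CPM (FDR = 0.0293), and KRT18 overlapped between the groups at 51.5 to 73.5 CPM. Markers of fibroblasts were present in both groups and moved with the comparison, with all 6 called lower and a sum of 629 and 727 CPM in control against 87.6 and 97.2 CPM in PRMT5 KD. The mesenchymal marker VIM and the proliferation marker MKI67 were also added after their values were seen. VIM went the other way without a call, from 1922 and 1791 CPM to 2513 and 2371 CPM (log2 fold change 0.40, FDR = 0.0579). MKI67 rose from 295 and 228 CPM to 827 and 756 CPM (1.60, FDR = 0.000759). Of the leukocyte markers, PTPRC and CD3E had at most 5 counts in any library, while CD14 fell and CD68 rose, and the 6 leukocyte markers summed to 129 and 153 CPM in control and 154 and 172 CPM in PRMT5 KD. The 4 endothelial markers summed to 10.9 and 14.7 CPM in control and 2.10 and 1.15 CPM in PRMT5 KD, and PECAM1 was the single one tested. The part of these differences in the results below was not tested.

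The antioxidant response element, through which NRF2 acts on its targets, has the core TGACNNNGC, which was searched on both strands. Binding of NRF2 to these genes was not measured. Of the 10 genes, 8 have an entry in the RefSeq promoter table (GRCh38.p14), and HMOX1 and AKR1B10 do not. In the 300 bases of that table, from 250 before the transcription start to 50 after it, the core was found for 2 of the 8, GCLM and TXNRD1, and 13.3% of all 35116 promoters hold it. Extended to 1000 bases before the start on the same genome, it was found for 5 of the 8, and 33.7% of all windows of that length hold it. Both percentages count each start apart, whereas a gene was counted if any of its starts held the core. The matches are printed from 5′ to 3′ on the strand that carries the core, which is in capitals, and the distance is that from the start to the core base farthest upstream.
NQO1, 455 bases before the start, chr16:69726997-69727025, minus strand: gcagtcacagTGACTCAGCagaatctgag
GCLM, 34 bases before the start, chr1:93909446-93909474, plus strand: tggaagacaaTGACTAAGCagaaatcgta
TXNRD1, 99 bases before the first start, chr12:104215670-104215698, plus strand: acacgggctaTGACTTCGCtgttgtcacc
TXNRD1, 8 bases before the first start, chr12:104215761-104215789, minus strand: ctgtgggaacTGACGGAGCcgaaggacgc
TXNRD1, 102 bases before the second start, chr12:104286920-104286948, minus strand: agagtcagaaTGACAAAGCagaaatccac
GCLC, 870 bases before the start, chr6:53545953-53545981, plus strand: aaatatgtgtTGACAGAGCaatgacctgt
OSGIN1, 557 bases before the start, chr16:83952673-83952701, plus strand: agacaatctgTGACTTGGCcccagttttc
ME1, a target outside the 10 genes, 137 bases before the start, chr6:83431170-83431198, minus strand: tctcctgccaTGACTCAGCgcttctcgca
The NQO1 and ME1 windows carry the same 9 core letters, which also lie 352 bases before the third start of SQSTM1, a gene that was not called. ME1 has another core beginning 12 bases after its start, and cores were also found before starts of KEAP1 and BACH1, which rose, and of PGD and TXN, which were not called. No core was found from 1000 bases before to 50 after the starts of NFE2L2, SRXN1 and AKR1C1, which says only that these letters are not in those windows. Among the other genes searched and named here, none was found for AKR1B1, AKR1C2, AKR1C3 and FTL, which fell, or for MAFG, which was not called.

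Of the 10 genes, NQO1 and AKR1B10 fell in the libraries labelled PRMT5 KD and none rose. The filter kept protein-coding genes with an RPKM (CPM divided by exon length in kilobases) of at least 0.5 in both libraries of at least one group. For the filter alone, RPKM was taken on the unscaled totals of protein-coding counts. All 10 genes passed it in both groups. A call required an FDR under 0.05 from edgeR's quasi-likelihood test and a log2 fold change of 0.5 or more in either direction. Over all 11897 genes tested, 45.5% were called, 21.2% higher and 24.3% lower, and the 2 calls in 10 genes lay below that share. Without a fold threshold 3 of the 10 genes passed the FDR, with SRXN1 added, against 54.4% of all genes, and with a fold threshold of 1 the calls were again NQO1 and AKR1B10, against 21.5%. The median log2 fold change of the 10 genes was -0.00021, with 5 above 0 and 5 below, and that of all genes tested was -0.0074. The groups did not overlap for 7 of the 10 genes, against 80.5% of all genes. With 2 libraries against 2, an exact two-sided permutation of the labels cannot give a p below 0.333, so each FDR rests on the spread that edgeR shares over all genes.

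**Figure D1:**
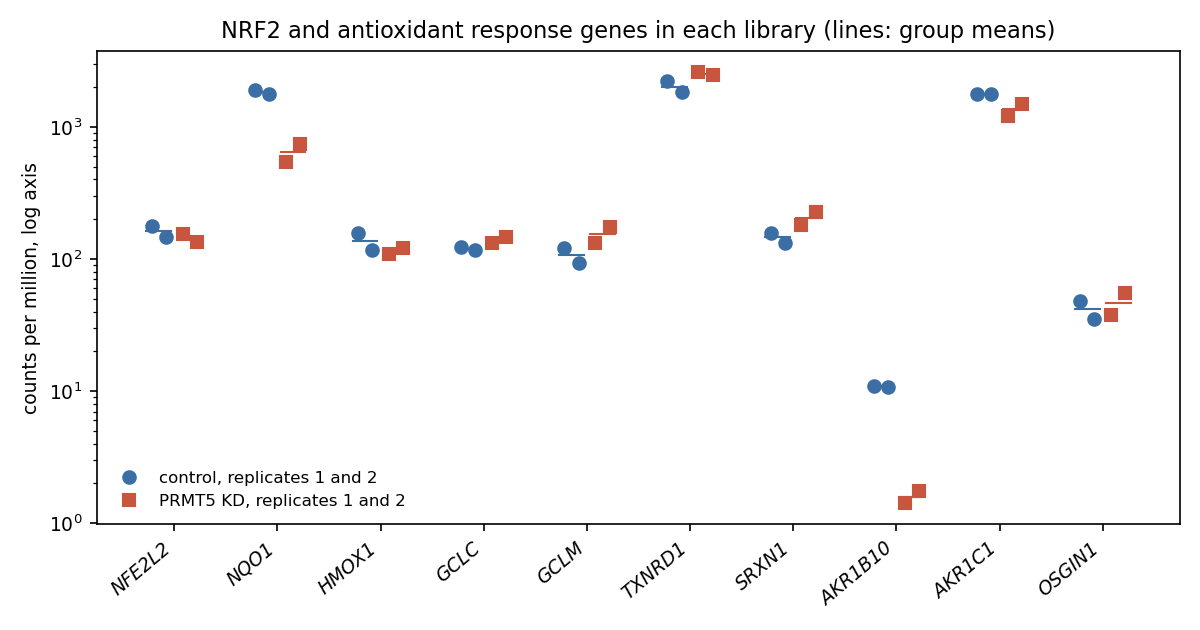
CPM (log axis) of the 10 genes in each control library (circles) and each PRMT5 KD library (squares), with a line at each group mean. The PRMT5 KD points of NQO1 (544 and 736 CPM) and AKR1B10 (1.43 and 1.76 CPM) lie far below their control points, while the points of the other 8 genes lie close together or overlap.

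NFE2L2 itself (GRCh38, chromosome 2, minus strand, 177218667 to 177392756) had 178 and 146 CPM in control and 155 and 134 CPM in PRMT5 KD. The groups overlapped, since PRMT5 KD replicate 1 lay between the control libraries. The log2 fold change was -0.16 (standard error 0.14, 95% interval from -0.51 to 0.18, FDR = 0.372). NFE2L2 has the longest exon sequence of the 10 genes, 14975 nt, and is in the longest of 10 equal groups of all genes by exon length, which had a median log2 fold change of -0.29 against 0.24 in the shortest group. Corrected for length and GC content its value was 0.12, and with total counts alone it was 0.014, neither with a call. On GENCODE 44, 23.4% of its exon bases lie opposite exons of HNRNPA3, and whether the counting used strand is not given in the sources used here.

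NQO1, a quinone reductase that uses NADPH or NADH and is the customary readout of NRF2 activity, fell. It lies on the minus strand of chromosome 16 from 69706996 to 69726668. It had 1891 and 1760.5 CPM in control and 544 and 736 CPM in PRMT5 KD, where both libraries were well below both controls. The means were 1826 ± 92.2 CPM (SD, n = 2) and 640 ± 136 CPM (SD, n = 2), which left 35.0% of the control level. The log2 fold change was -1.51 (standard error 0.19, 95% interval from -1.97 to -1.06, FDR = 0.00124). Without PRMT5 KD replicate 1, the library with the largest share of ribosomal RNA, it was -1.27 and the call held. In bulk RNA a smaller number of cells that express a gene and less RNA per cell cannot be told apart.

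AKR1B10, an aldo-keto reductase of retinal and reactive aldehydes, had the largest change of the 10 genes. It lies on the plus strand of chromosome 7 from 134527567 to 134541412 and had the lowest level of the 10 per exon length. It had 435 and 541 counts in control and 68 and 84 counts in PRMT5 KD. On the CPM scale this was 11.0 and 10.8 against 1.43 and 1.76, and the groups lay far apart. The means were 10.9 ± 0.124 CPM and 1.59 ± 0.232 CPM (SD, n = 2 each), 14.6% of the control level. The difference was -2.77 on the log2 scale (standard error 0.21, 95% interval from -3.27 to -2.28, FDR = 0.00033). Of all 50-base words in its annotated transcripts, 11.3% also occur in AKR1B15, its neighbouring paralog, so the estimates may have divided some reads between the pair. AKR1B15 had 103 and 179 counts in control and 2 and 6 in PRMT5 KD. With both genes summed as 1, the log2 fold change was -3.06 (FDR = 0.000279).

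AKR1C1, a hydroxysteroid and carbonyl reductase on the plus strand of chromosome 10 from 4963253 to 4983283, had 1769 and 1760.2 CPM in control and 1212 and 1490.4 CPM in PRMT5 KD. Both PRMT5 KD libraries were below both controls. The log2 fold change of -0.39 (standard error 0.16, 95% interval from -0.77 to 0.0018, FDR = 0.0836) did not pass the test, and without PRMT5 KD replicate 2 it was called at -0.53. AKR1C1 is part of a cluster of near-identical genes, and 20.9% of its 50-base words occur in AKR1C2 and 1.95% in AKR1C3. How reads were divided among these genes is not known. AKR1C2 fell from 193 and 187 CPM to 52.5 and 78.7 CPM (log2 fold change -1.54, FDR = 0.00178). AKR1C3, which makes androgens and prostaglandins, fell from 577 and 600.4 CPM to 57.1 and 96.5 CPM (-2.94, FDR = 0.000765). Summed over AKR1C1, AKR1C2 and AKR1C3, the level was 2539.8 and 2548 CPM in control against 1322 and 1666 CPM in PRMT5 KD, and this sum was called lower, at -0.77 (standard error 0.17, FDR = 0.00984). That sum includes the fall of AKR1C3, in which few of the AKR1C1 words occur. The call of the sum therefore does not show how reads were divided between AKR1C1 and AKR1C2, whose sum alone was not tested.

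The pair of subunits of glutamate-cysteine ligase, the enzyme that sets the rate of glutathione synthesis, did not reach a call. GCLC, the catalytic subunit on chromosome 6 from 53497341 to 53616970, had 123 and 117 CPM in control and 132 and 147 CPM in PRMT5 KD (log2 fold change 0.22, 95% interval from -0.058 to 0.49, FDR = 0.15). GCLM, the modifier subunit on chromosome 1 from 93885199 to 93909456, had 122 and 92.7 CPM in control and 132 and 175 CPM in PRMT5 KD. Its log2 fold change of 0.52 (standard error 0.19, 95% interval from 0.051 to 0.99) was above the fold threshold while its FDR of 0.0612 was not under 0.05. Both subunits were higher in both PRMT5 KD libraries than in either control. GCLM was called by DESeq2 (0.53, FDR = 0.0301) and in 5 of 11 alternative settings in all. After the correction for length and GC content GCLM was at 0.40 (FDR = 0.106). Without PRMT5 KD replicate 1 it was called at 0.74, and without replicate 2 its value was 0.31.

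TXNRD1 and SRXN1, which keep thioredoxin and peroxiredoxins in their reduced, working form, were also higher in both PRMT5 KD libraries than in either control without a call. TXNRD1, thioredoxin reductase on chromosome 12 from 104215779 to 104350307, had 2209 and 1818 CPM in control and 2585 and 2476 CPM in PRMT5 KD, a log2 fold change of 0.33 (standard error 0.16, 95% interval from -0.062 to 0.72, FDR = 0.13). SRXN1, sulfiredoxin on chromosome 20 from 646615 to 653200, had 158 and 133 CPM in control and 181 and 225 CPM in PRMT5 KD. It passed the FDR (0.0376) and missed the fold threshold at 0.48 (standard error 0.15, 95% interval from 0.11 to 0.85). SRXN1 was called in 4 of 11 alternative settings, and its leave-one-out values ran from 0.32 without PRMT5 KD replicate 2 to 0.67 without replicate 1. It no longer passed the FDR after the correction for length and GC content (0.31, FDR = 0.136) or with the replicate block (0.48, FDR = 0.0805). On GENCODE 44, 90.7% of its exon bases are shared with a second gene model on the same strand.

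HMOX1 and OSGIN1 overlapped between the groups. HMOX1, the inducible heme oxygenase on chromosome 22 from 35380361 to 35394214, had 158 and 118 CPM in control and 109 and 120.0 CPM in PRMT5 KD, a log2 fold change of -0.27 (95% interval from -0.66 to 0.12, FDR = 0.199). The control libraries differed more from each other than the PRMT5 KD libraries did. OSGIN1, an oxidative stress-induced growth inhibitor on chromosome 16 from 83931311 to 83966332, had 48.2 and 35.2 CPM in control and 37.6 and 55.6 CPM in PRMT5 KD, a log2 fold change of 0.16 (95% interval from -0.43 to 0.76, FDR = 0.599). Its direction turned when 1 library was left out, to -0.049 without control replicate 2 and to -0.14 without PRMT5 KD replicate 2. For neither gene do the intervals show that the level was the same in both groups.

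**Figure D2:**
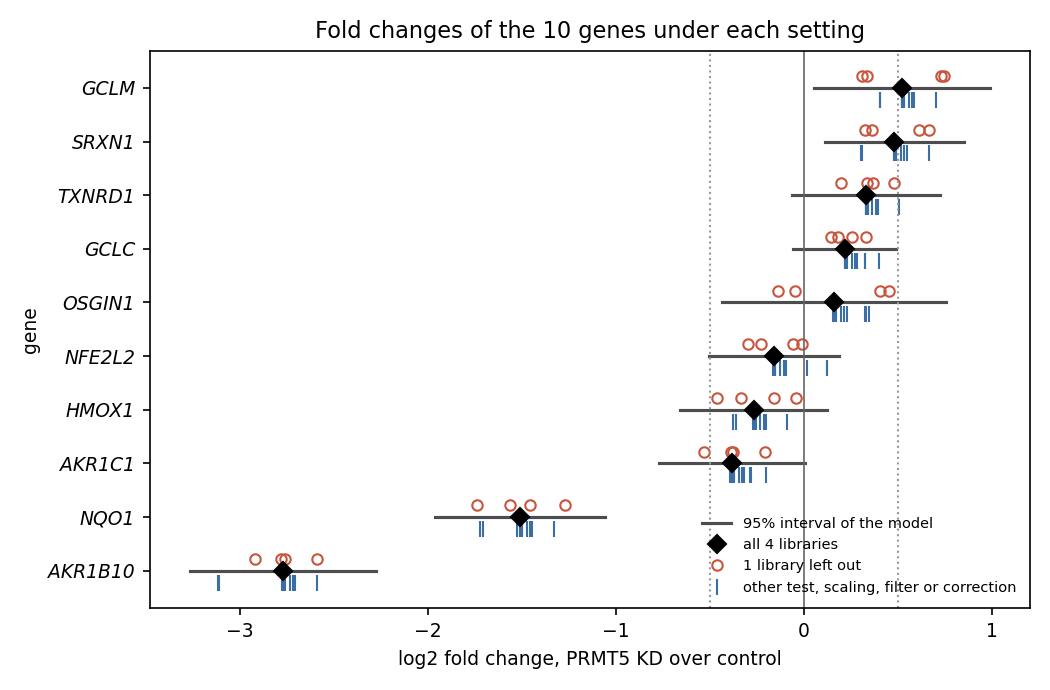
Log2 fold change of PRMT5 KD over control for the 10 genes, with the value from all 4 libraries (diamond), its 95% interval (line), the 4 values with 1 library left out (open circles) and 11 other tests, scalings, filters or corrections (ticks), and dotted lines at the fold threshold of 0.5 in each direction. The intervals of AKR1B10 (-3.27 to -2.28) and NQO1 (-1.97 to -1.06) lie wholly below -0.5, and no other gene's interval clears its threshold.

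The level of each gene per exon length was compared within libraries on the RPKM scale. In control, NQO1 was the highest of the 10, at 636 and 593 RPKM, and TXNRD1 was next, at 329 and 271 RPKM. In PRMT5 KD the order of this pair was exchanged, with TXNRD1 at 385 and 369 RPKM and NQO1 at 183 and 248 RPKM. AKR1C1 was the third in both groups, at 202 and 201 RPKM in control and 138 and 170.0 RPKM in PRMT5 KD. HMOX1 (68.3 and 51.1 RPKM) and SRXN1 (62.7 and 52.6 RPKM) overlapped in control, so their order there is not set, whereas in PRMT5 KD SRXN1 (71.7 and 89.1 RPKM) lay above HMOX1 (47.1 and 52.0 RPKM) in both libraries. GCLM, GCLC, NFE2L2 and OSGIN1 followed with control means of 19.8, 13.9, 10.8 and 7.50 RPKM. NFE2L2 and OSGIN1 overlapped in PRMT5 KD. AKR1B10 was the lowest in both groups, with means of 6.15 RPKM in control and 0.898 RPKM in PRMT5 KD. Exon lengths here are those of all annotated exons together. With the longest transcript as the length instead, NFE2L2 moved from rank 8 to rank 6 in control and GCLM from rank 6 to rank 8.

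**Figure D3:**
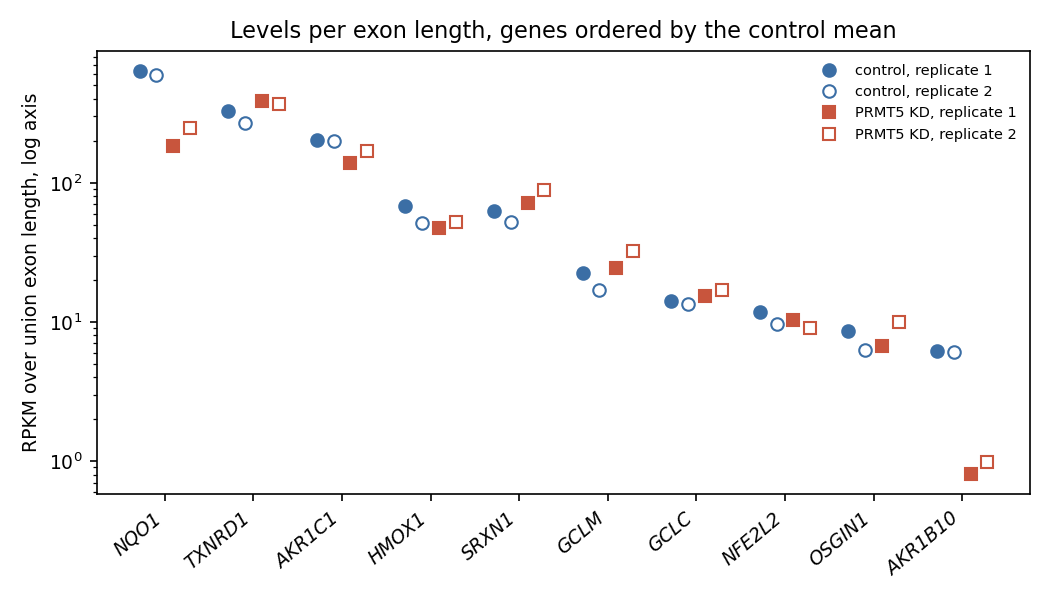
Level per kilobase of exon (RPKM, log axis) of the 10 genes in each library, ordered by the control mean, with circles for control, squares for PRMT5 KD and open symbols for replicate 2. NQO1 leads in control at 593 to 636 RPKM and TXNRD1 leads in PRMT5 KD at 369 to 385 RPKM.

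The other genes of the pathway were followed in 6 lists by role, 137 genes in all, of which 124 were tested, 10 had too few counts or no protein-coding model and 3 had no row under the name used. Of the 124, 26 rose and 45 fell, together 57.3% against the 45.5% of all genes, with a median log2 fold change of -0.17. When either control library was left out, fewer genes were called, both in these lists and over all genes. The median of the 124 was then -0.23 without control replicate 1 and -0.096 without control replicate 2. The medians of all genes were -0.0071 and -0.0059. With total counts alone 31 of the 124 rose and 36 fell, with a median of 0.0086. Over all 11897 genes that scaling gave 3509 that rose and 2200 that fell, with a median of 0.17. Of the 124 genes, 119 passed the filter in both groups. AKR1B15, SESN3, GSTA4 and MGST1 passed it through control only and were called lower, and ALDH1A3 passed it through PRMT5 KD only and was called higher, so their place among the genes tested was set by the group in which they are high. Of 9 well known NRF2 targets outside the main set that were named for this purpose, SLC7A11, ME1, FTL and ABCC3 fell, PRDX1 rose, and GSR, TXN, PGD and FTH1 were not called, with a median of -0.57. The lists were chosen with earlier results of these data known. The shifts in fibroblast markers and MKI67 given above accompany all of these changes.

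**Figure D4:**
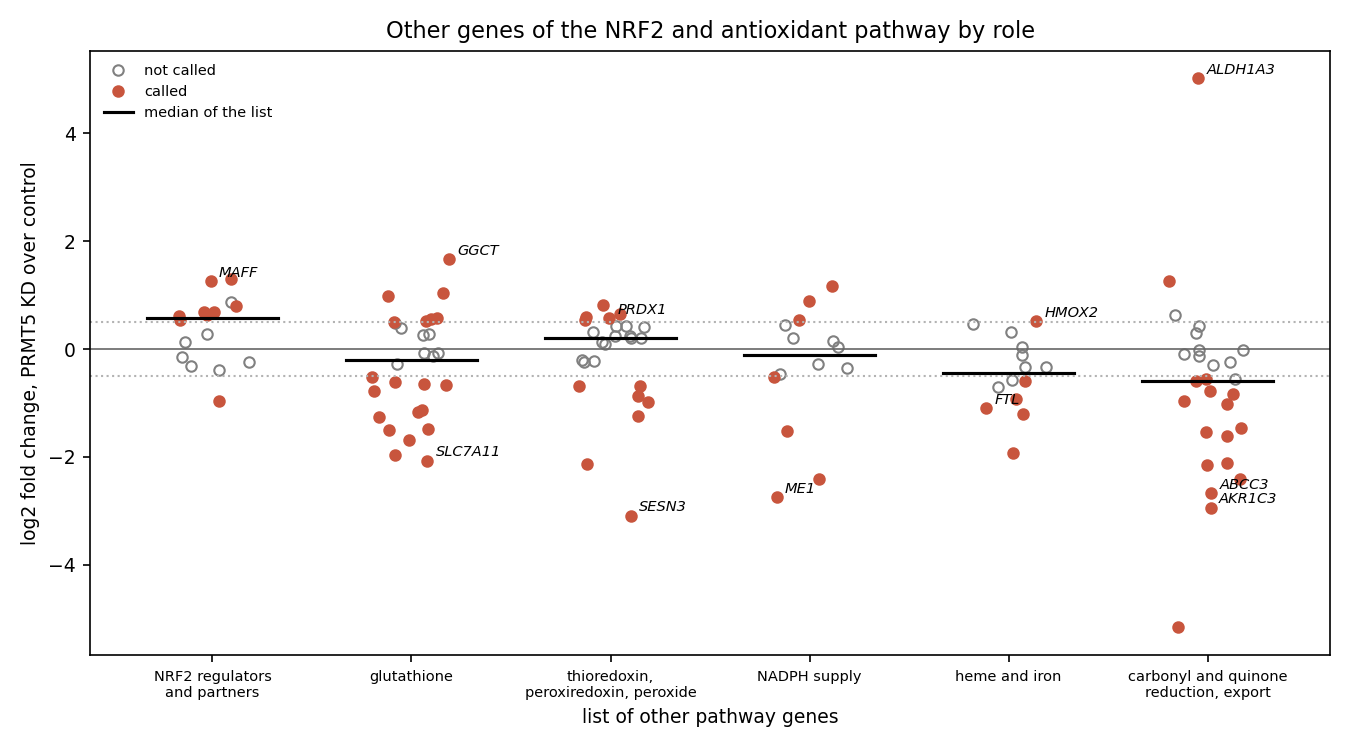
Log2 fold change of PRMT5 KD over control for the 124 other pathway genes tested, in 6 lists by role, with called genes filled, genes not called open, a line at each list's median and dotted lines at the fold threshold of 0.5. The median is highest for NRF2 regulators and partners (0.57) and lowest for carbonyl and quinone reduction, conjugation and export (-0.60).

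Among 16 regulators and partners of NRF2, 8 rose, 1 fell and 7 were not called, with a median log2 fold change of 0.57. Of all genes, 21.2% rose and 24.3% fell. KEAP1, the adaptor that holds NRF2, rose from 84.8 and 85.5 CPM to 116 and 143 CPM (0.60, FDR = 0.0095). BACH1, the repressor that competes for the same element, rose from 299 and 297 CPM to 539.7 and 382 CPM (0.63, FDR = 0.0273). Both were higher in each PRMT5 KD library than in either control. Their calls rested on all 4 libraries, since each was called in just 1 of the 4 comparisons that left a library out, over ranges of 0.46 to 0.78 for KEAP1, called without PRMT5 KD replicate 1, and 0.40 to 0.86 for BACH1, called without PRMT5 KD replicate 2. Of the small MAF partners, MAFF rose from 57.1 and 47.9 CPM to 151 and 101 CPM (1.26, FDR = 0.0051). MAFK had a log2 fold change of 0.88 (FDR = 0.0994) and was called by DESeq2, and MAFG was at 0.13 (FDR = 0.643) with overlapping libraries. RBX1, the RING subunit of the CUL3 ligase, rose from 19.5 and 20.7 CPM to 36.4 and 33.9 CPM (0.81, FDR = 0.00247). CUL3 itself was at -0.31 (FDR = 0.102). TRIM21, a ubiquitin ligase, rose by 1.31 on the log2 scale (FDR = 0.0357) and kept a call without control replicate 1 but with no other library left out, over a range of 0.89 to 1.74. The TRIM21 call was also lost without a filter, with the replicate block and with the correction for length and GC content. GSK3B, a kinase that marks NRF2 for destruction, was the one that fell, from 285 and 289 CPM to 168 and 125 CPM (-0.97, FDR = 0.00347). NFE2L1, the close relative of NFE2L2, was at -0.39 (FDR = 0.0795). SQSTM1, an autophagy receptor that can draw KEAP1 away from NRF2, had 3688 and 3819 CPM in control against 3809 and 3006 CPM, and its groups overlapped (-0.14, FDR = 0.526).

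Of 28 genes tested for glutathione synthesis, recycling and use, 7 rose and 13 fell, together 71.4% against the 45.5% of all genes. SLC7A11, the cystine importer that feeds glutathione synthesis, fell from 5035 and 4686 CPM to 1259.8 and 1058 CPM (-2.07, standard error 0.17, FDR = 0.000415). OPLAH, which returns oxoproline to glutamate, fell from 26.2 and 29.0 CPM to 6.74 and 7.38 CPM (-1.97, FDR = 0.000325). GPX4, the peroxidase of lipid hydroperoxides, fell from 79.5 and 96.8 CPM to 32.1 and 22.4 CPM (-1.69, FDR = 0.00138). For these 3 genes each PRMT5 KD library was less than each control, and the calls held in all 4 leave-one-out comparisons. The largest increases were in GGCT and CHAC2, which break glutathione products and glutathione down, and in GSTO1, a glutathione transferase. GGCT rose from 7.96 and 6.79 CPM to 25.0 and 21.7 CPM (1.66, FDR = 0.000573). CHAC2 rose by 1.04 (FDR = 0.0083) and GSTO1 by 0.99 (FDR = 0.00586) on the log2 scale. CHAC2 was not called when either control library was left out or after the correction for length and GC content, and GSTO1 was not called without control replicate 1. GSR, glutathione reductase, had a log2 fold change of 0.25 (FDR = 0.186).

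Of 25 genes tested for thioredoxins, peroxiredoxins and the removal of superoxide and peroxide, 5 rose and 7 fell, together 48% and so near the 45.5% of all genes. SESN3, a sestrin that passed the filter through control only, fell from 27.6 and 31.7 CPM to 3.91 and 3.05 CPM (-3.09, FDR = 0.000232). SOD3, the extracellular superoxide dismutase, fell from 3.89 and 6.01 CPM to 0.987 and 1.28 CPM (-2.13, FDR = 0.00233). TXNIP, the inhibitor of thioredoxin, fell from 132 and 203 CPM to 77.3 and 64.6 CPM (-1.24, FDR = 0.00693). The 3 largest increases were in the glutaredoxins GLRX2 (0.82, FDR = 0.0122), GLRX3 (0.65, FDR = 0.00336) and GLRX5 (0.60, FDR = 0.0101). PRDX1, a peroxiredoxin that SRXN1 repairs, rose from 249 and 243 CPM to 375 and 362 CPM (0.58, FDR = 0.00695). The PRDX1 and GLRX5 calls were lost after the correction for length and GC content, and those of PRDX1, GLRX2 and GLRX5 when either control library was left out. TXN, the thioredoxin that TXNRD1 reduces, had a log2 fold change of 0.10 (FDR = 0.52) with overlapping groups, and was called lower, at -0.59, after the correction for length and GC content.

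Among 14 genes tested for the supply of NADPH, the electron donor of NQO1, TXNRD1 and glutathione reductase, 3 rose and 4 fell, together 50% and so near the 45.5% of all genes. ME1, the cytosolic malic enzyme whose promoter window is printed above, fell from 878 and 800.0 CPM to 133 and 118 CPM (-2.74, standard error 0.15, FDR = 0.000201). IDH1, the cytosolic isocitrate dehydrogenase, fell from 196 and 220 CPM to 68.2 and 77.1 CPM (-1.52, FDR = 0.000424). Both calls held with each library left out. PGD, an NADPH-forming enzyme of the pentose phosphate pathway, was at -0.36 (FDR = 0.0787), with both PRMT5 KD libraries below both controls. The increases were in RPIA (1.17, FDR = 0.00134) and TALDO1 (0.55, FDR = 0.00815), enzymes of the pentose phosphate pathway that form no NADPH, and in the mitochondrial folate enzyme MTHFD2 (0.89, FDR = 0.0175). TALDO1 was not called when either control library was left out or after the correction for length and GC content, and MTHFD2 was not called without control replicate 2.

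Of 14 genes for heme and iron handling, 1 rose and 5 fell, together 42.9% and so near the 45.5% of all genes. FTL, the ferritin light chain, fell from 4421 and 4972 CPM to 2332 and 2069 CPM (-1.09, FDR = 0.00223). FTH1, the ferritin heavy chain, had 4980.4 and 5472 CPM in control against 4339 and 2693 CPM and was not called (-0.57, FDR = 0.0932). The FTH1 value depended on the PRMT5 KD library, at -0.92 with a call without replicate 1 and -0.26 without replicate 2, and DESeq2 and the correction for length and GC content called it lower. ACO1, an iron-sensing aconitase, fell by 1.93 on the log2 scale (FDR = 0.00537) and SLC48A1, a heme transporter, by 1.21 (FDR = 0.00153). HMOX2, the constitutive heme oxygenase, rose from 25.5 and 25.2 CPM to 36.2 and 36.4 CPM (0.52, FDR = 0.00961), and lost its call when either control library was left out. HMOX1 was not called, and the difference between the changes of HMOX1 and HMOX2 was not tested.

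Carbonyl and quinone reduction, conjugation and export had the lowest median of the 6 lists, -0.60, and of 27 genes tested 2 rose and 15 fell, where 21.2% of all genes rose and 24.3% fell. AKR1B1, aldose reductase and the paralog of AKR1B10 that shares no 50-base word with it, fell from 5661 and 4808 CPM to 1333 and 1037 CPM (-2.14, standard error 0.20, FDR = 0.00051). AKR1B15, AKR1C2 and AKR1C3, given above, fell too, so 5 aldo-keto reductases of the AKR1B and AKR1C families were called lower, AKR1B10 included. AKR1B15, one of these 5, passed the filter through control only, and AKR1C1 was not called. ABCC3, an exporter of conjugated drugs and bile acids, fell from 914 and 1064 CPM to 154 and 158 CPM (-2.66, standard error 0.15, FDR = 0.000208). ABCC3, AKR1B1 and AKR1C3 were called in all 4 leave-one-out comparisons. The 2 increases were in ALDH1A3, a retinal dehydrogenase, and CBR3, a carbonyl reductase. ALDH1A3, which passed the filter through PRMT5 KD only, had 46 and 93 counts in control against 4084 and 655 in PRMT5 KD (5.02, FDR = 0.0173). Its value was 3.20 with PRMT5 KD replicate 1 left out, and the call was lost when either control library was left out. CBR3 had 46 and 58 counts in control against 119 and 147 (1.26, FDR = 0.00917) and lost its call when either control library was left out and after the correction for length and GC content.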

How the data were processed

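The authors deposited 1 table of estimated counts per gene for each library, not normalized. The submitters' processing notes name GRCh38, FastQC, Trim Galore, STAR, Salmon and DESeq2 without roles, and the methods name STAR and FeatureCounts on protein-coding Gencode genes. Rows with 1 name were summed, and 28 entries whose names had become dates (0.15% to 0.161% of the counts) were left out. Names were matched to GENCODE 44 on GRCh38 (24557 of 29655) for exon lengths and coordinates. Counts were rounded, filtered as stated, scaled by TMM and compared with edgeR 4.0.16 in R 4.3.3 (robust quasi-likelihood, no replicate term, Benjamini-Hochberg over all genes tested). Standard errors and 95% intervals came from the F statistic. The procedure was tested on simulated data. Alternatives were DESeq2 1.42.0, other scalings and filters, all gene names, non-robust dispersion, a replicate block, length and GC offsets (splines, 4 degrees of freedom), a fold threshold of 1, summed paralogs and each library left out. The precision is limited by 2 libraries per group. The genes named are the 10 genes, the direct regulators and paralogs of NRF2 targets fixed by name, 9 known targets, and up to 3 called genes in each direction per list whose groups did not overlap. Some listed genes are not reported here by name. The members and lists were chosen with earlier results of these data known.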

Additional observations from a re-analysis of the deposited data

How the results depend on the processing

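NQO1 and AKR1B10 kept their direction and call under all 11 other tests, scalings, filters and corrections and in all 4 comparisons that left out a library, over ranges of -1.74 to -1.27 and -3.12 to -2.59. The number of the 10 genes called went from 2 to 5 with total counts alone, which moved the median of all genes to 0.17 and added GCLM, TXNRD1 and SRXN1, and to 4 with filterByExpr, without a filter and with all gene names, which each added GCLM and SRXN1. It ran from 2 to 4 with 1 library left out. NFE2L2 changed sign with total counts alone (0.014) and with the length and GC correction (0.12, also 0.12 with the replicate block), and OSGIN1 ran from -0.14 to 0.45 with 1 library left out, none of these with a call. The cause was not tested. With a fold threshold of 1, 34 other pathway genes and 2560 of all genes were called in place of 71 and 5418, by construction. With 1 library left out these counts ran from 42 to 70 and from 3108 to 5709, with the lowest values without control replicate 2. The replicate numbers correlated at -0.101 in their deviations and were not taken as pairs. A replicate block called 2 of the 10 genes, 68 pathway genes and 5185 of all genes. Calls of GCLM, SRXN1, TXNRD1 and AKR1C1 lie near the thresholds, where 2 libraries per group decide little.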

Other observations

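Several antioxidant genes differed more between the PRMT5 KD libraries than between the groups. SOD2, the mitochondrial superoxide dismutase, had 1138 and 1196 CPM in control and 1973 and 1124 CPM in PRMT5 KD (log2 fold change 0.41, FDR = 0.248), and SESN2, a sestrin, had 82.4 and 61.0 CPM against 111 and 57.6 CPM (0.23, FDR = 0.607). Both genes were chosen after their values were seen. GPX2, GSTA1 and AKR1C4 were listed at 0 counts in all 4 libraries, and ALDH3A1, often used as a marker of NRF2 activity in squamous tumours, had between 15 and 38 counts.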
